A study of Mus musculus with 19 samples.

Results

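The genes described here belong to the core circadian clock and were followed through the day in cholinergic neurons of the mouse spinal cord. They are Arntl (which encodes BMAL1), Clock and Npas2, which encode transcriptional activators, Nr1d1 and Nr1d2, which encode the repressors REV-ERBα and REV-ERBβ, and Rora and Rorb, which encode the activators RORα and RORβ. These 7 genes were chosen by symbol from the 50559 genes of the table, and all 7 were among the 15572 genes with enough counts to test. The 18 immunoprecipitate libraries came from wild-type 10-wk-old male C57BL/6J mice of the genotype ChAT-Cre;RiboTag fx/+, collected at Zeitgeber time (ZT, counted in hours from lights on, with light and dark phases of 12 h) 0, 4, 8, 12, 16 and 20 with 3 biological replicates per time point and 1 spinal cord per library. No other allele or treatment is named, and every animal carried both alleles. The RiboTag allele adds a hemagglutinin tag to a ribosomal protein wherever Cre has acted, here in cells that express choline acetyltransferase or did so earlier, so pulling down the tag recovers ribosome-bound mRNA of motor neurons together with other cholinergic spinal neurons. One library of pooled input, RNA of the whole spinal cord before the pulldown, completed the 19 libraries.

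BMAL1 pairs with CLOCK, or with its relative NPAS2, and the pair activates genes that carry E-boxes, among them the genes for the REV-ERB repressors and for the PER and CRY proteins, which in turn inhibit the pair. REV-ERB and ROR proteins compete for the same DNA element, the RORE, in the Arntl promoter, where REV-ERB represses and ROR activates. In most tissues this loop places the Arntl peak in antiphase to the REV-ERB peak, and in neurons NPAS2 can stand in for CLOCK.

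The immunoprecipitates held between 6302150 and 22406844 counts and the input 15239792. All 7 cholinergic markers (Chat, Slc5a7, Slc18a3, Ache, Isl1, Mnx1 and Prph) were higher in the immunoprecipitates than in the input, with a median log2 ratio of 2.39. All markers fixed for oligodendrocytes, astrocytes, microglia, inhibitory and excitatory neurons, endothelial cells and erythrocytes were lower, with list medians between -4.34 and -1.78, yet none of those markers was at 0 in every immunoprecipitate: the 7 oligodendrocyte markers still summed to between 1541 and 2916 CPM (counts relative to library size) and the 6 astrocyte markers to between 132 and 205 CPM. In such bulk libraries, fewer tagged cells and less RNA per tagged cell cannot be told apart.

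The levels of the 7 genes were compared per length, as CPM per kb of the union of annotated exons, because their exon lengths ran from 3.08 kb (Nr1d1) to 13.7 kb (Clock). The REV-ERB genes were the most abundant, Nr1d2 at 11.8 ± 2.05 and Nr1d1 at 11.7 ± 2.14 CPM per kb (SD, n = 18 libraries), and the order of these neighbours was not stable, Nr1d2 being the higher in 10 of 18 libraries. Rora followed at 2.60 ± 0.386, Clock at 1.80 ± 0.282 and Arntl at 0.934 ± 0.187 CPM per kb, and each of these was above the next in all 18 libraries. A single length per gene served all libraries, so this agreement does not cover error in the lengths. Without length the mean CPM was 63.7 for Nr1d2, 35.9 for Nr1d1, 34.0 for Rora and 24.7 for Clock. It was 7.02 for Arntl, 2.75 for Rorb and 1.21 for Npas2. Npas2 at 0.252 ± 0.105 and Rorb at 0.248 ± 0.0754 CPM per kb were lowest and could not be ranked against each other, Npas2 being the higher in 7 of 18 libraries. Their counts were small, from 4 to 40 per library for Npas2 and from 10 to 83 for Rorb, which sets the precision of every value given for them. Within the pairs of relatives, Clock made up 87.8% ± 4.26 of the length-scaled sum of Clock and Npas2, and Rora 91.1% ± 2.97 of the sum of Rora and Rorb (SD, n = 18). In the input these shares were 70.9% and 62.3%, below the lowest immunoprecipitate (77.9% and 85.6%).

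Arntl, which encodes a partner of both CLOCK and NPAS2, had its highest levels at lights on. In the light phase its libraries gave 8.41, 9.24 and 9.88 CPM (ZT0), 7.12, 5.95 and 6.46 CPM (ZT4), and 4.83, 5.29 and 6.63 CPM (ZT8). In the dark phase, counted from lights off, they gave 6.61, 5.42 and 6.24 CPM (ZT12), 7.86, 7.54 and 7.27 CPM (ZT16), and 6.13, 8.99 and 6.55 CPM (ZT20). All 3 libraries at ZT0 lay above all of those at ZT4, ZT8, ZT12 and ZT16, and overlapped only with ZT20, where 1 library was high. Arntl was lower at ZT8 than at ZT0 by a log2 difference of -0.72 (SE 0.20, adjusted p = 0.0177, edgeR quasi-likelihood test, Benjamini-Hochberg adjustment over all genes), from 9.18 ± 0.740 to 5.58 ± 0.937 CPM (SD, n = 3 each). Of all genes tested, 18.0% differed in this pair of time points and 9.02% were lower at ZT8. The difference remained between -0.76 and -0.71 under the other scalings, filters and models tried, and between -0.87 and -0.64 on leaving out libraries. The call was kept under 22 of 29 alternatives, the stricter threshold of 0.01 not counted. Its adjusted p was 0.0520 without the first replicate at ZT0, 0.0750 without the third replicate at ZT0 and 0.0854 without the second replicate at ZT8. With genes kept at 1 count in total it was 0.0686. It was highest, 0.161, without the second replicates throughout.

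Arntl lies at chr7:113178471-113314126 on the plus strand (RefSeq, GRCm38.p6, the mm10 build of the deposited table). Its annotated promoter windows, which run from 250 bases before a start to 50 bases after it, hold 2 ROREs of the long form, and they are shown because this element is the known meeting point of REV-ERB and ROR on Arntl. The capitals mark the element with the AA before it in each 30-base stretch. Both stretches are on the plus strand, at chr7:113207492-113207521 and chr7:113207528-113207557, with 25 bases between the capitals:
Arntl first RORE: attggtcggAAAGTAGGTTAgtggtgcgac
Arntl second RORE: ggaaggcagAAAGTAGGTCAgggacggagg
Both elements read AGTAGGTNA, a pattern written with these windows in view, which on either strand occurs in 0.591% of the 32851 promoter windows of RefSeq and, among the 11 windows of the 7 genes, only in those of Arntl. The shorter RORE core AGGTCA, which overlaps the second element, occurs in 16.3% of all windows and was present for Arntl, Clock and Nr1d2. A match of letters describes the window and shows no binding.

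Clock, which encodes the usual partner of BMAL1, gave 21.7, 24.7 and 28.3 CPM (ZT0), 31.6, 28.2 and 24.6 CPM (ZT4), and 24.6, 33.1 and 26.6 CPM (ZT8) in the light. In the dark it gave 21.9, 20.4 and 22.9 CPM (ZT12), 19.5, 19.2 and 23.9 CPM (ZT16), and 22.3, 24.3 and 27.1 CPM (ZT20). The 3 libraries at ZT8 lay above all 3 at ZT16, and those at ZT4 and ZT8 above all 3 at ZT12. From 28.1 ± 4.43 CPM at ZT8 to 20.8 ± 2.62 at ZT16 (SD, n = 3 each) the log2 difference was -0.43 (SE 0.15, adjusted p = 0.0462, edgeR), in a pair of time points where 16.9% of all genes differed and 7.80% were lower at ZT16. This call was kept under 7 of the same 29 alternatives, with differences between -0.58 and -0.24. It was lost with library totals as the scale (adjusted p = 0.0680) and without the second replicate at ZT8 (0.274), among others.

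Npas2, which encodes the second partner of BMAL1, was near the limit of what these libraries resolve. Its 18 values ran from 0.593 CPM to 2.45 CPM with a median of 1.17 CPM. The ZT0 libraries alone gave 1.53, 2.45 and 0.831 CPM, so replicates of 1 time point spanned most of the range of the whole day. No pair of time points passed the test for Npas2, and the SE of its ZT12 against ZT0 difference (-0.80) was 0.54 on the log2 scale.

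Nr1d1, which encodes REV-ERBα, was read at 36.1, 31.8 and 32.9 CPM (ZT0), 37.9, 28.1 and 41.3 CPM (ZT4), and 43.3, 24.8 and 31.5 CPM (ZT8) by day. By night it was read at 40.1, 43.7 and 46.9 CPM (ZT12), 35.3, 46.7 and 30.8 CPM (ZT16), and 29.9, 36.1 and 29.8 CPM (ZT20). The ZT12 mean, 43.6 ± 3.42 CPM, was the highest and the ZT20 mean, 31.9 ± 3.64 CPM, the lowest (SD, n = 3 each). These groups did not overlap, but they were picked as the extremes of the time point means. The log2 difference of -0.44 between them (ZT20 minus ZT12, SE 0.19) had an adjusted p of 0.933 (edgeR), and no pair of time points passed for Nr1d1. At its 3′ end Nr1d1 overlaps the thyroid hormone receptor gene Thra on the other strand by 263 exon bases, 8.55% of its exons. Thra had a mean of 5757 counts per immunoprecipitate against 525 for Nr1d1. The kit kept strand, but the strand setting used in counting is not given in the sources used here, so how much of the Nr1d1 value is Thra cannot be told apart.

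Nr1d2, which encodes REV-ERBβ, changed in the direction opposite to Arntl over the light phase. Its daytime libraries held 45.5, 58.6 and 58.9 CPM (ZT0), 72.5, 69.4 and 48.7 CPM (ZT4), and 76.9, 91.5 and 74.9 CPM (ZT8). Its night libraries held 64.5, 66.6 and 56.1 CPM (ZT12), 61.6, 54.8 and 67.5 CPM (ZT16), and 54.1, 58.1 and 66.4 CPM (ZT20). Each library at ZT8 lay above every library of the other 5 time points. Nr1d2 was higher at ZT8 (81.1 ± 9.06 CPM) than at ZT0 (54.3 ± 7.68 CPM, SD, n = 3 each) by a log2 difference of 0.58 (SE 0.15, adjusted p = 0.0119, edgeR), as 8.95% of all genes were. The difference stayed between 0.54 and 0.59 under the other scalings, filters and models, and between 0.47 and 0.70 on leaving out libraries. The call was kept under 24 of the same 29 alternatives. Its adjusted p was 0.0813 without the first replicate at ZT0 and 0.0880 without the second replicate at ZT8. It was 0.0920 without replicate number 1 throughout, 0.142 without number 2 and 0.0679 without number 3. The ZT8 value was also above those at ZT16 (log2 difference ZT16 minus ZT8 -0.41, adjusted p = 0.0602) and ZT20 (-0.44, adjusted p = 0.0948), which missed the threshold with edgeR and passed with DESeq2 (adjusted p = 0.0365 and 0.0426).

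The upstream bases of Nr1d2 are shown because, among the genes that passed a test here, it is the one besides Arntl whose RORE core was read on its own strand. It lies at chr14:18204056-18239106 on the minus strand. The 250 bases before its start, at chr14:18239107-18239356, are written 5′ to 3′ on the minus strand with the core AGGTCA in capitals:
Nr1d2 upstream: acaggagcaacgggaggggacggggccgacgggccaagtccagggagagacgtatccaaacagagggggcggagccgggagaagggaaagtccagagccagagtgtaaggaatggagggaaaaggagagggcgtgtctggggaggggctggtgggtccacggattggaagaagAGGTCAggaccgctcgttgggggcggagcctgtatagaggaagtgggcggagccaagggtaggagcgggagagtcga
The other elements searched on either strand were the E-box CACGTG (7.15% of all windows), the E′-box CACGTT (4.68%) and the D-box TTATGTAA (0.938%). The E′-box was present in the window of Nr1d1 and in 1 window of Rorb, and the E-box and the D-box in none of the 11 windows, which says only that these letters are not there.

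**Figure D1:**
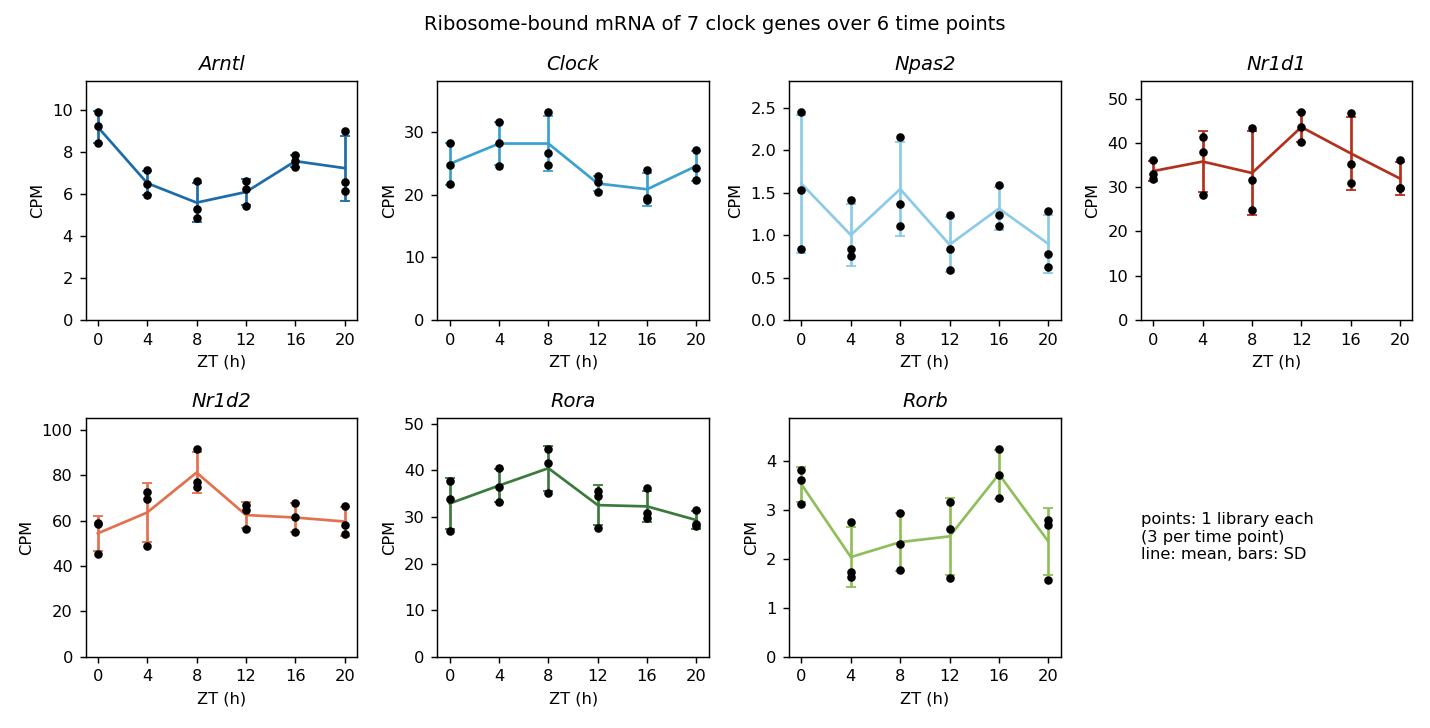
CPM (vertical axis, from 0) against ZT in hours for the 7 genes, 1 point per library, with the mean and SD of the 3 libraries per time point as line and bars. Arntl is highest at ZT0 and lowest at ZT8, Nr1d2 is highest at ZT8, and the replicates of Npas2 and Rorb spread over much of each axis.

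Rora, which encodes RORα, ran from 27.0 to 44.6 CPM with a median of 34.2 CPM. Its values in the light were 27.0, 37.8 and 33.9 CPM (ZT0), 36.5, 40.5 and 33.3 CPM (ZT4), and 35.2, 41.6 and 44.6 CPM (ZT8). In the dark they were 35.6, 34.5 and 27.5 CPM (ZT12), 30.8, 29.8 and 36.1 CPM (ZT16), and 31.6, 28.4 and 27.96 CPM (ZT20). The highest mean was that of ZT8 (40.5 ± 4.80 CPM) and the lowest that of ZT20 (29.3 ± 1.98 CPM, SD, n = 3 each). These groups, picked as the extremes of the time point means, did not overlap. The log2 difference of -0.47 (ZT20 minus ZT8, SE 0.14) had an adjusted p of 0.0808 with edgeR and 0.0339 with DESeq2.

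Rorb, which encodes RORβ, gave 3.13, 3.62 and 3.83 CPM (ZT0), 2.76, 1.63 and 1.73 CPM (ZT4), and 2.31, 1.78 and 2.95 CPM (ZT8) by day. Its night values were 1.61, 2.61 and 3.18 CPM (ZT12), 3.25, 4.25 and 3.71 CPM (ZT16), and 1.57, 2.81 and 2.701 CPM (ZT20). The libraries at ZT16 lay above all of those at ZT4, ZT8, ZT12 and ZT20, and those at ZT0 above all of those at ZT4, ZT8 and ZT20. The largest log2 difference, 0.86 between ZT16 and ZT4 (SE 0.35), had an adjusted p of 0.173 (edgeR), and no pair of time points passed for Rorb.

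Over the 15 pairs of time points, 3 of the 7 genes passed in at least 1 pair (edgeR, adjusted p under 0.05), beside 21.4% of all genes tested. In the 105 comparisons that these genes and pairs make, exactly 3 passed: Arntl and Nr1d2 in ZT8 minus ZT0 and Clock in ZT16 minus ZT8. Those are also the pairs of time points in which nearly all calls of the whole table fell, since the other 13 pairs held at most 10 called genes each. With DESeq2 the count was 4 of 7, with Rora added, and 27.0% of all genes passed in at least 1 pair.

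**Figure D2:**
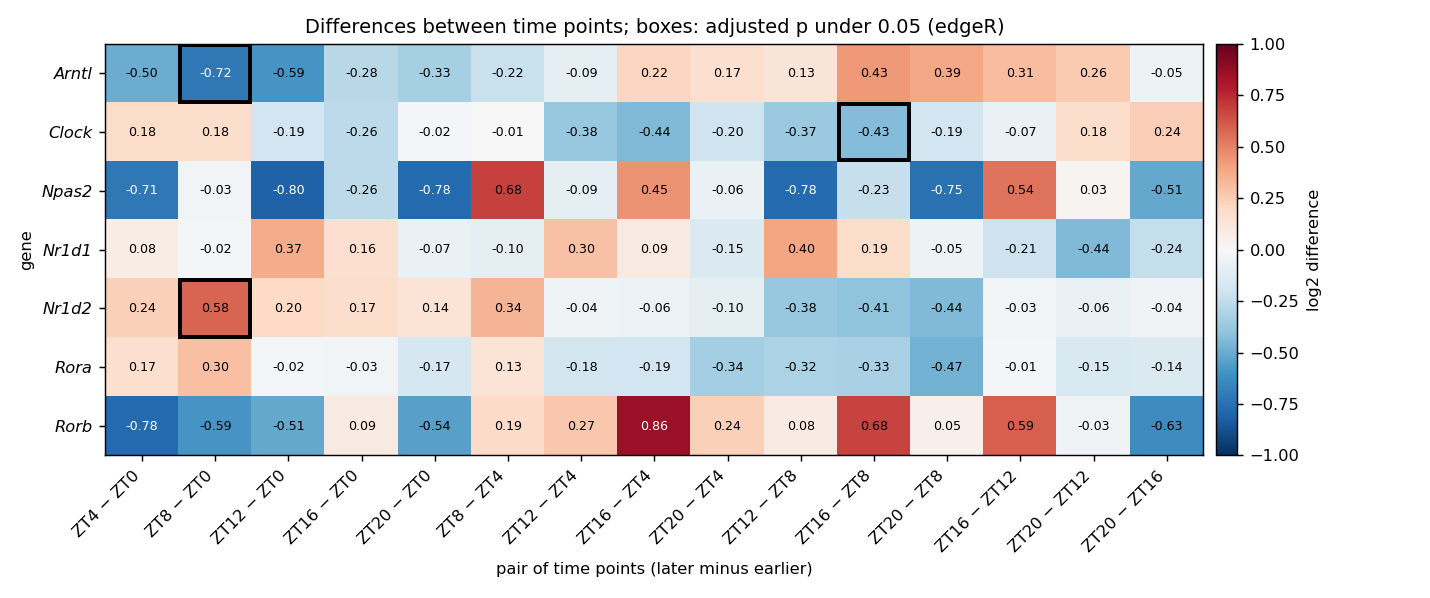
Log2 difference (colour and printed value, later minus earlier time point) for each of the 7 genes (rows) in each of the 15 pairs of time points (columns). The boxes mark the 3 comparisons with an adjusted p under 0.05, and the widest differences of Npas2 and Rorb, up to 0.86, are unboxed.

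Because Arntl and Nr1d2 moved in opposite directions, their ratio within a library, which does not depend on scaling, showed the light-phase difference directly. The Nr1d2 to Arntl count ratio was 5.41, 6.34 and 5.96 (ZT0), 10.2, 11.7 and 7.54 (ZT4), and 15.9, 17.3 and 11.3 (ZT8) by day. By night it was 9.76, 12.3 and 9.00 (ZT12), 7.84, 7.27 and 9.28 (ZT16), and 8.82, 6.46 and 10.1 (ZT20). The 3 libraries at ZT0 had the lowest ratios of all 18, and 2 of the 3 at ZT8 the highest. The mean ratio was 5.90 ± 0.470 at ZT0 and 14.8 ± 3.15 at ZT8 (SD, n = 3 each), and this is a description that restates the differences tested above. The Nr1d1 to Arntl ratio was lowest at ZT0 (3.69 ± 0.530) and highest at ZT12 (7.21 ± 1.03), and the Clock to Arntl ratio was lowest at ZT0 (2.704 ± 0.144) and highest at ZT8 (5.12 ± 1.13).

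**Figure D3:**
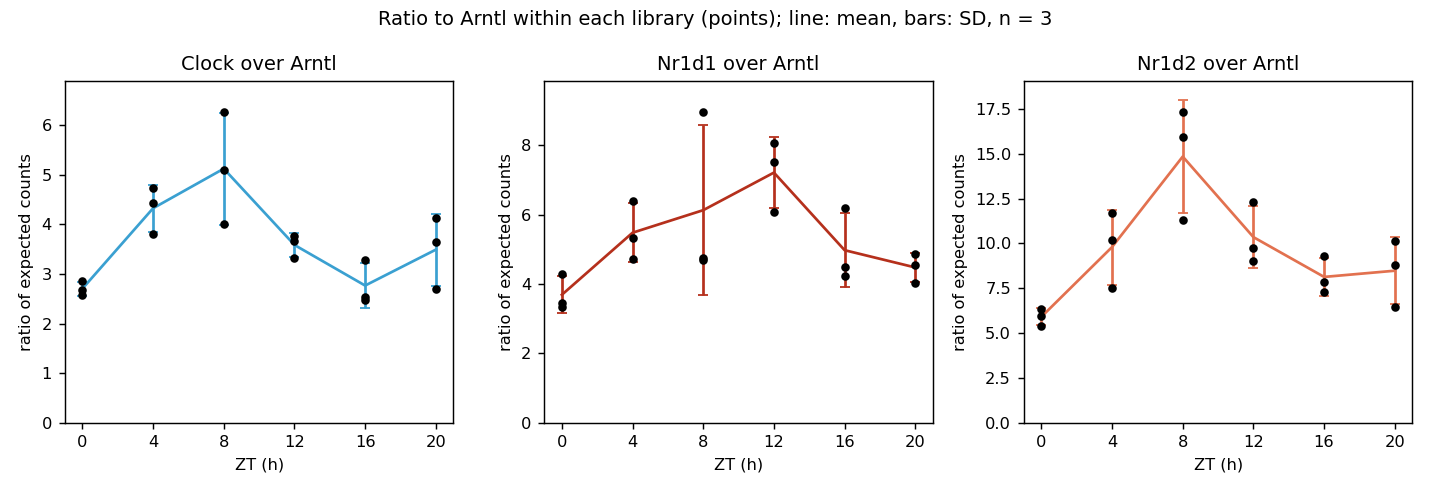
Ratio of expected counts to that of Arntl in the same library (vertical axes, from 0) against ZT in hours for Clock, Nr1d1 and Nr1d2, 1 point per library, with mean and SD (n = 3) as line and bars. The Nr1d2 ratio climbs from a mean of 5.90 at ZT0 to 14.8 at ZT8, and the Nr1d1 ratio has its highest mean, 7.21, at ZT12.

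Levels of other cell types were read beside these differences. The summed astrocyte markers were 178 ± 12.0 CPM at ZT0, 149 ± 16.6 at ZT8 and 181 ± 21.1 at ZT16, without overlap between ZT0 and ZT8. The summed inhibitory neuron markers were 335 ± 11.5 CPM at ZT0 and 269 ± 28.9 at ZT8, also without overlap, whereas the cholinergic markers gave 4665 ± 212 and 4427 ± 257 CPM (SD, n = 3 each), which overlapped, as did the sums of the other 5 lists. Between ZT8 and ZT16 the astrocyte and the excitatory neuron markers did not overlap, the latter at 69.2 ± 9.67 and 55.5 ± 3.30 CPM. With a glial marker score as a covariate the ZT8 minus ZT0 difference was -0.75 for Arntl (adjusted p = 0.0154) and 0.57 for Nr1d2 (adjusted p = 0.0154), and the ZT16 minus ZT8 difference of Clock was -0.45 (adjusted p = 0.0799, edgeR). The erythrocyte markers summed to 682 ± 75.9 CPM at ZT12, where Nr1d1 had its highest mean, and to means between 272 and 366 CPM at the other time points. The part of the erythrocyte, inhibitory and excitatory neuron markers in these differences was not tested.

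Whether the genes followed a daily rhythm was asked in 3 ways over all 6 time points. None of the 7 genes passed JTK_Cycle, a rank test against cosine curves of 20, 24 and 28 h, after adjustment over all genes (background 0.0385%, or 6 genes). That background was not stable, since 0 genes of the whole table passed in 14 of the 21 fits that left out libraries and 752 passed without the third replicate at ZT16. Adjusted within the gene alone, 2 of 7 were under 0.05, Arntl (p = 0.0264) and Clock (p = 0.0377, exact null of JTK_Cycle), against 15.8% of all genes. For both the best curve had a period of 20 h. The study, using JTK_Cycle and an adjusted p under 0.05, reports many more oscillating transcripts than the 6 genes here. The reason for that difference was not tested. None of the 7 passed the 24-h cosinor in edgeR either (background 6.24%), while 4 of 7 (Arntl, Clock, Nr1d2 and Rora) had an unadjusted p under 0.05, against 26.7% of all genes. The number of genes of the whole table that passed the cosinor ran from 0 to 2668 on leaving out libraries. DESeq2 passed 3 of 7 (Arntl, Clock and Rora, with no adjusted p for Npas2 and Rorb), beside 14.8% of all genes, and limma 0 of 7, beside 8.20%. In the test of any difference among the 6 time points, 0 of 7 passed with edgeR (background 6.74%) and 1 of 7, Nr1d2, with DESeq2 (16.1% of all genes), and the same 4 genes as in the cosinor had an unadjusted p under 0.05, against 23.7% of all genes.

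The fitted 24-h curves give each gene an amplitude (from mean to peak, log2) and a peak time with its SE. Arntl had a fitted amplitude of 0.29 (SE 0.085), with a peak at ZT21.5 (SE 1.19 h) and an adjusted p of 0.0683 (edgeR). Clock peaked at ZT4.0 (SE 1.13 h) with an amplitude of 0.21 (SE 0.061, adjusted p = 0.0709, edgeR). Rora peaked at ZT6.8 (SE 1.17 h) with an amplitude of 0.20 (SE 0.058, adjusted p = 0.0740, edgeR). Nr1d2 peaked at ZT8.8 (SE 1.29 h) with an amplitude of 0.20 (SE 0.066, adjusted p = 0.106, edgeR), and Nr1d1 at ZT12.3 (SE 2.15 h) with an amplitude of 0.15 (SE 0.079, adjusted p = 0.391, edgeR). For Rorb the amplitude was 0.29 (SE 0.15, peak ZT18.7, SE 2.30 h), and for Npas2 0.13 (SE 0.19) with a peak time whose SE, 7.00 h, leaves it unplaced. Of 31 alternatives, 2 each took Arntl and Nr1d2 and 3 each took Clock and Rora past the threshold. The median amplitude of the 7 genes was 0.20, against 0.18 over all genes tested.

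**Figure D4:**
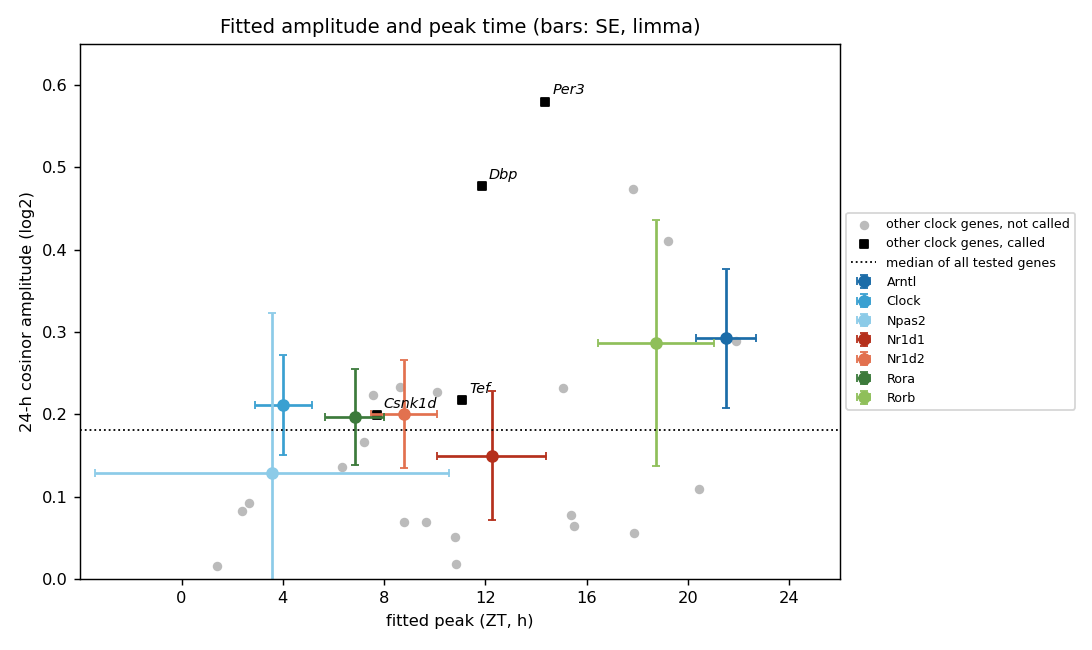
Fitted 24-h amplitude (log2, vertical axis) against fitted peak time (ZT, h) for the 7 genes (coloured points with SE bars from limma) and 24 other clock genes (grey where not called, black squares where called by edgeR). Per3, Dbp, Tef and Csnk1d are called and none of the 7 is, with Arntl at ZT21.5 and Nr1d2 at ZT8.8 on opposite sides of the cycle.

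Other genes of the clock, from a list of 24 that were all tested, were read in the same fits. In the cosinor 4 of 24 passed, beside 6.24% of all genes tested, a share that ran from 0 to 16.6% on leaving out libraries. They were Per3, one of the PER repressors (amplitude 0.58, peak ZT14.4, adjusted p = 0.0373, edgeR), Dbp, a PAR bZIP output factor (0.48, peak ZT11.9, adjusted p = 0.0274, edgeR), Tef, another of that family (0.22, peak ZT11.1, adjusted p = 0.0377, edgeR), and Csnk1d, the kinase CK1δ that acts on PER (0.20, peak ZT7.7, adjusted p = 0.0373, edgeR). By role, 1 of 8 repressors, 2 of 4 outputs and 1 of 7 kinases and ubiquitin ligases passed, and none of the other 5 genes of the list did. The median amplitude of the 24 genes was 0.15. The amplitudes of Clock (0.21), Nr1d2 (0.20) and Rora (0.20) were near those of Tef and Csnk1d, and that of Arntl (0.29) lay between Tef and Dbp. The spread between replicates within time points was 0.17 to 0.20 on the log2 scale for Arntl, Clock, Nr1d2 and Rora. Among the genes that passed it was 0.10 for Csnk1d, 0.13 for Tef, 0.20 for Dbp and 0.43 for Per3. The part of this spread in the calls was not tested. Nfil3, which encodes a repressor of D-box genes and is itself a known RORE target, was higher at ZT16 than at ZT8 by 1.09 (SE 0.30, adjusted p = 0.0198, edgeR), where the difference of Arntl was 0.43 (SE 0.20, adjusted p = 0.138, edgeR).

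Against the pooled input, 3 of the 7 genes were at least 2-fold lower in the immunoprecipitates with all 18 libraries below (background 22.5% of 19843 genes) and none was at least 2-fold higher (background 12.3%). The input has no replicate, so no test was made, and its exact Poisson intervals (95%) cover counting error only. Rorb was lowest, at 2.78 ± 0.857 CPM (SD, n = 18) against 20.7 CPM (18.7 to 22.8) in the input, which is -2.90 as a log2 ratio. The mean of Npas2 was 1.22 ± 0.506 CPM where the input held 7.59 CPM (6.39 to 8.94), or -2.64 on the log2 scale. Clock reached 25.0 ± 3.92 CPM, below the 52.9 CPM (49.7 to 56.3) of the input (log2 ratio -1.08). The low members of both pairs of relatives were thus also the ones most reduced against whole spinal cord. These ratios set ribosome-bound mRNA against RNA of the whole spinal cord, and the part of ribosome loading in them was not tested.

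The other 4 genes were within 2-fold of the input. Nr1d2 averaged 64.4 ± 11.0 CPM where the input held 96.8 CPM (92.4 to 101), and all 18 libraries were below it (log2 ratio -0.59). Arntl averaged 7.11 ± 1.46 CPM, with 2 libraries above and 16 below the 9.28 CPM (7.96 to 10.8) of the input (log2 ratio -0.39). Nr1d1 (-0.26, 4 libraries above) and Rora (-0.23, 3 above) lay at about the median log2 ratio of all genes compared, -0.21. All of these ratios stood well above those of the glial marker lists, whose median genes were between -4.34 and -3.46. Arntl2, a relative of Arntl, was at 3.38 ± 0.735 CPM against 3.08 CPM (2.34 to 3.98) in the input. Scaled by library totals instead, the median of all genes compared moved to -0.54 and the log2 ratios of the 7 genes moved with it, for example to -0.71 for Arntl and -1.41 for Clock, and Clock, Npas2 and Rorb were again the 3 genes called.

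**Figure D5:**
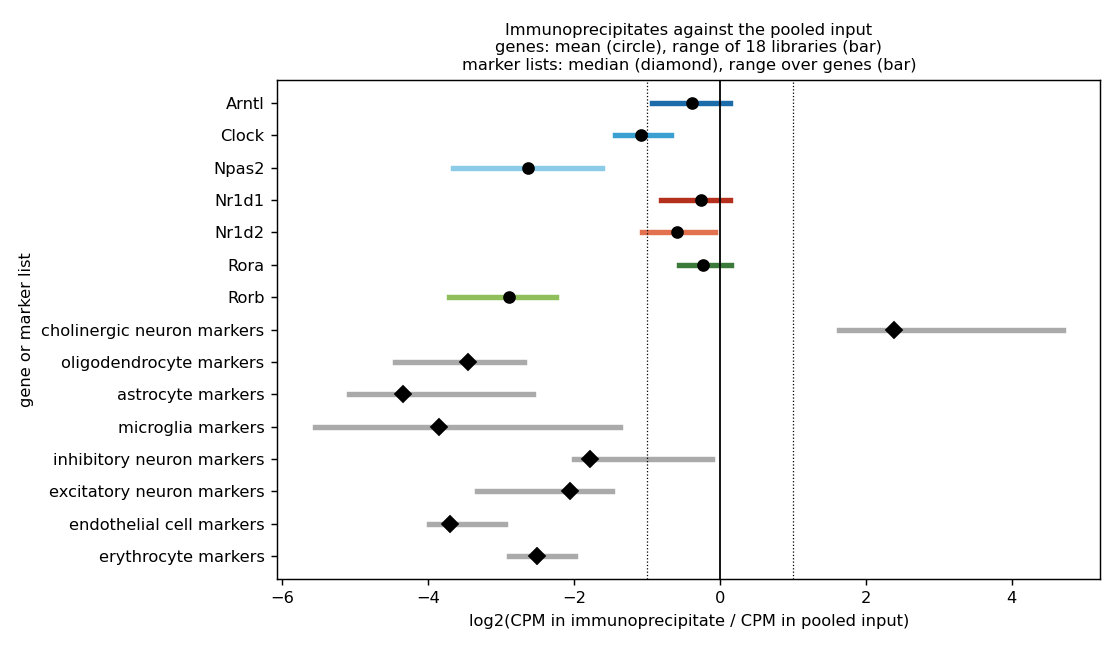
Log2 ratio of CPM in the immunoprecipitates to CPM in the pooled input (horizontal axis) for the 7 genes (circle: mean, bar: range of 18 libraries) and 8 marker lists (diamond: median gene, bar: range over genes), with dotted lines at 2-fold. Rorb, Npas2 and Clock lie past the lower line, the cholinergic markers past the upper one, and the medians of the glial lists lie below the means of all 7 genes.

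Across the 18 immunoprecipitates, the log2 CPM of Arntl was set against that of each of the other 6 genes. The relation with Rorb was positive, Pearson r = 0.62 (permutation p = 0.00661, adjusted p = 0.0397 over the 6 relations) and Spearman rho = 0.72 (permutation p = 0.00111, adjusted p = 0.00666). Without the 2 libraries farthest from the Arntl median r was 0.52 (permutation p = 0.0404), and on deviations from the time point means it was 0.43 (permutation p = 0.0718). Over all alternatives the call was kept in 16 and lost in 9. Among single libraries, it was lost without any of the 3 at ZT0, the first or second at ZT4 or the second at ZT8. On leaving out libraries r stayed between 0.56 and 0.66. Over all genes tested, the middle 95% of r ended at 0.59 for Arntl and 0.61 for Rorb, only just below the 0.62 of this relation. The log2 ratio of Rorb to the input was -2.90, against list medians of -1.78 for inhibitory and -2.06 for excitatory neuron markers. The summed inhibitory neuron markers, like Arntl, had their highest mean at ZT0 (335 CPM) and their lowest at ZT8 (269 CPM). The part of RNA from other cell types in the relation of Arntl with Rorb was not tested. The relation with Nr1d2 was negative, Pearson r = -0.52 (permutation p = 0.0250, adjusted p = 0.0751) and Spearman rho = -0.43 (permutation p = 0.0750, adjusted p = 0.225). It was -0.56 without the 2 farthest libraries (permutation p = 0.0256) and 0.02 on deviations from the time point means (permutation p = 0.940), so within time points no relation was seen. The relation passed on adjustment when the third library at ZT4 was left out.

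The remaining relations with Arntl over all 18 libraries were weaker: r = -0.30 for Rora, -0.12 for Clock, -0.05 for Nr1d1 and 0.04 for Npas2, with rho of -0.24, -0.12, 0.01 and 0.04 (permutation p between 0.224 and 0.869 for r and between 0.339 and 0.987 for rho, adjusted p between 0.448 and 0.869 and between 0.679 and 0.987). Without the 2 libraries farthest from the Arntl median r was -0.49 for Rora (permutation p = 0.0545), -0.32 for Clock (permutation p = 0.232), 0.07 for Nr1d1 and -0.10 for Npas2, and on leaving out any single library or replicate number r for Rora ran from -0.53 to -0.12. As a description with no test, Nr1d2 and Rora varied together over the 18 libraries (r = 0.69), as did Clock and Nr1d2 (0.58) and Clock and Rora (0.53), while Nr1d1 was opposed to Clock (-0.59) and not aligned with its relative Nr1d2 (-0.40). Over all genes tested, the middle 95% of r ended at 0.72 for Nr1d2, 0.72 for Rora and 0.69 for Clock. The positive values among Nr1d2, Rora and Clock lay below these ends, so they do not set these genes apart from many others. All of these values share libraries and their depth.

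Among all genes tested, those whose log2 CPM over the 18 libraries was most like that of each gene were, by Pearson r, Gm2007 (0.81) and Meis2 (0.78) for Arntl, Hnrnph1 (0.89) and LOC108168731 (0.88) for Clock, and Grasp (0.71) and Gm30238 (0.70) for Npas2. For the REV-ERB genes they were Pik3r2 (0.82) and Gm26512 (0.81) for Nr1d1 and Bmpr2 (0.92) and Shoc2 (0.90) for Nr1d2. For the ROR genes they were Camp (0.88) and Cdkn1b (0.85) for Rora and Mrgpre (0.84) and Mocs1 (0.82) for Rorb. None of these nearest genes was another of the 7 or a gene of the clock list, and Gm30238, Gm26512 and Camp had mean levels under 1 CPM.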

How the data were processed

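Spinal cord RNA from 18 immunoprecipitates and 1 pooled input was sequenced as stranded poly(A) libraries. Per the labels and the study's methods, STAR 2.7.5 placed the reads on mm10 and RSEM estimated gene abundance. The table holds the expected counts per gene as deposited, without normalization by the authors. They were rounded here. Samples were grouped by labelled time point, 3 per group. Where libraries of the 7 genes are said to lie above others or not to overlap, the time points were picked from the values. The share of all genes with such gaps was not counted. The 7 genes and all gene lists were chosen with earlier results of these data known. All genes were fitted in edgeR 4.0.16 (R 4.3.3, TMM scaling, filterByExpr, quasi-likelihood F-tests, prior count 2 for log2 CPM), with Benjamini-Hochberg adjustment over all genes and a threshold of 0.05. JTK_Cycle was computed on log2 CPM with its exact null, and SEs of amplitude and peak come from limma 3.58.1. DESeq2 1.42.0 was an alternative. The code was tested on simulated counts. For the input comparison all 19 libraries were scaled together, with genes of at least 10 counts in total and a count in the input. Correlations used 100000 permutations, two-sided. Positions and promoter windows are from RefSeq GRCm38.p6, and exon lengths and overlaps from the GENCODE M21 annotation. Named genes were the 7 genes, the clock list where called or where read beside a member, and for each member its 2 most correlated genes. Nfil3 and Arntl2 were named after their values were seen. Other processing tried was scaling, filters on low counts, a replicate block, a glial covariate, a stricter threshold and leaving out each library. Some genes of the clock list are not reported here by name.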

Additional observations from a re-analysis of the deposited data

How the results depend on the processing

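Replicate numbers do not pair the libraries: residuals of same-numbered libraries correlated between -0.151 and 0.176 (median -0.00416). With the replicate block, 2 of the 7 genes passed in a pair of time points (Arntl and Nr1d2, Clock at an adjusted p of 0.0503), and 0 passed JTK_Cycle, the cosinor and the test among time points, with 1 relation to Arntl passing. The block took the genes of the whole table passing JTK_Cycle from 6 to 356. Genes passing among the time points were 1 (Nr1d2) with genes kept at 1 count in total, where 10.8% of all genes passed, and 1 with DESeq2 (16.1%), and in the cosinor 3 with DESeq2 (14.8%). With the glial marker score as a covariate 5 genes of the whole table passed the cosinor, in place of 972. JTK_Cycle adjusted within the gene alone gave 2. At a threshold of 0.01 no gene passed in any pair (0). Leaving out libraries moved the genes passing in a pair between 0 and 5, in the cosinor between 0 and 3, in JTK_Cycle and among the time points from 0 to 0, and the relations passing between 0 and 2. Over the same fits the genes of the whole table ran from 1 to 4835 in a pair, from 0 to 2668 in the cosinor, from 0 to 752 in JTK_Cycle and from 0 to 2454 among the time points. The count in a pair was 0 without the first replicate at ZT0, without the second at ZT8 and without either of those numbers throughout, 1 without the third at ZT0, and 5 (with Nr1d1 and Rora added) without the first at ZT8. Of all genes, 30.0% passed in a pair without the first replicate at ZT8 and 2.75% without the second. The cosinor count was 3 without the third replicate at ZT20 (16.6% of all genes), 2 without that number throughout (9.76%), and 1 (Rora) without the third replicate at ZT12 (10.1%) or at ZT16 (9.61%). One fitted value reversed: the Npas2 amplitude ran from 0.010 to 0.31 on leaving out libraries, and at its lowest, without the second replicates, its peak moved across the cycle. The input counts were 3 in each alternative except a 1.5-fold limit, which gave 4 with Nr1d2. The cause of these changes was not tested. Counts of 4 to 40 limit Npas2 most.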
